A study of Danio rerio with 4 samples.

Results

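RNA polymerase II is the enzyme that transcribes protein-coding genes, and 4 of its subunit genes, polr2a, polr2f, polr2j and polr2l, were followed through every probe set that carries their symbols. They had 6 probe sets of 15617 on the array, and 4 genes of 8793 named ones. The study compared embryonic brain RNA of zebrafish carrying the foggy mutation, on 3 arrays, with that of wild-type zebrafish, on 1 array, all at 36 h. The labels of the foggy samples give the age without a unit, and it was read as hours. The labels give no allele, zygosity, strain or treatment for either group, and do not say whether embryos were pooled or whether the foggy samples came from separate clutches or RNA extractions. Whether other head tissue came with the brain is not stated. The 4 genes were chosen with the difference between foggy and wild type known: polr2a was picked for its large difference, and polr2f, polr2j and polr2l as the subunits next to it in size of difference. Their differences are therefore described below and carry no test.

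The foggy locus encodes Spt5, a protein that travels with RNA polymerase II, acts in its pausing close to promoters and aids later elongation. The polr2a protein is the largest subunit, Rpb1. It forms much of the catalytic cleft and ends in a long tail of repeated heptapeptides, the C-terminal domain (CTD), whose phosphorylation marks the steps from initiation to termination. The product of polr2j, Rpb11, pairs with Rpb3 (polr2c) in an early assembly intermediate of the enzyme. The products of polr2f (Rpb6) and polr2l (Rpb10) are small subunits that RNA polymerases I and III share with RNA polymerase II.

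The values are intensities on a linear scale that the authors had already scaled between arrays, so a change common to most transcripts is removed and each difference is to be read against the rest of the same array. In a bulk tissue sample, fewer cells that express a gene and less of its RNA per cell cannot be told apart. With 1 wild-type array, no spread could be measured in that group, and tests across all probe sets (limma, which pools variance information over probe sets) took it from the foggy arrays. The median signal lay between 65.3 and 66.0 in the foggy arrays and was 65.4 in the wild-type array. The list of brain neuron and progenitor markers was present in all arrays, with all 25 members above the limit for dim probe sets. Its summed signal was 19555 to 20009 in the foggy arrays and 20264 in the wild-type array, and by limma's test 4 of the 25 genes were higher and 3 lower in foggy. In the lists of other tissues 13 of 16 tested skeletal muscle genes and 6 of 8 tested red blood cell genes were lower in foggy, and 0 were higher. Among all named genes, each taken by its brightest probe set, 2.19% were higher and 3.74% lower by the same test. The summed signal of 16 skeletal muscle genes was 2867 to 3074 in the foggy arrays and 7702 in the wild-type array, and that of 11 red blood cell genes on the array was 1748 to 1890 in the foggy arrays and 6799 in the wild-type array. None of the genes of these 3 lists was at 0 in every array. Their part in the results below was not tested. The transcript of the mutated gene, supt5h, read 258, 245 and 254 in the foggy arrays and 210 in the wild-type array. The level of this transcript does not check the labels, because a mutation can leave the RNA in place.

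The polr2a transcript was higher in all 3 foggy arrays on a pair of its 3 probe sets, with mean signals 2.16 and 2.85 times that of the wild type, and nearly level on the third. The brightest probe set read 366, 340 and 320 in the foggy arrays and 158 in the wild-type array. The foggy arrays lay close together and all stood above the wild-type array, the nearest at 2.02 times its signal. The mean signal was 342 ± 23.0 in foggy (SD, n = 3), 2.16 times that of the wild type, and the difference on the log2(signal + pseudocount) scale, which understates the change of weak signals and is used for every log2 difference here, averaged +1.03, with an SD of 0.092 between foggy arrays. The median of this SD over the 10851 tested probe sets was also 0.092.

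The middle probe set read 136, 155 and 189 in the foggy arrays and 56.1 in the wild-type array. It showed the larger relative difference and also the larger scatter. Its foggy signals were 2.42, 2.76 and 3.36 times that of the wild type, with a log2 difference of +1.27 and an SD of 0.217, and 91.8% of tested probe sets varied less between foggy arrays. The order of the foggy arrays was opposite on these probe sets: foggy array 3 was the lowest on the brightest one and the highest on the middle one. The ratio of the brightest to the middle probe set was thus 2.69, 2.19 and 1.70 in the foggy arrays and 2.82 in the wild-type array.

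The faintest probe set read 30.5, 29.6 and 28.4 in the foggy arrays and 27.4 in the wild-type array. Here too all 3 foggy arrays were above the wild-type array, but by 1.04 to 1.11 times. It averaged 29.5 ± 1.02 in foggy (SD, n = 3), with a log2 difference of +0.07 and an SD of 0.032. Its signal exceeded only 29.6% of the probe sets in the wild-type array and 30.3% to 31.98% in the foggy arrays, so it sat at the edge of the range removed as dim. The brightest probe set moved within its array's ranking to the 86.1st to 87.9th percentile in the foggy arrays, against the 72.5th in the wild-type array. The middle one stood at the 69.1st to 76.3rd percentile in the foggy arrays and the 45.8th in the wild-type array.

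**Figure D1:**
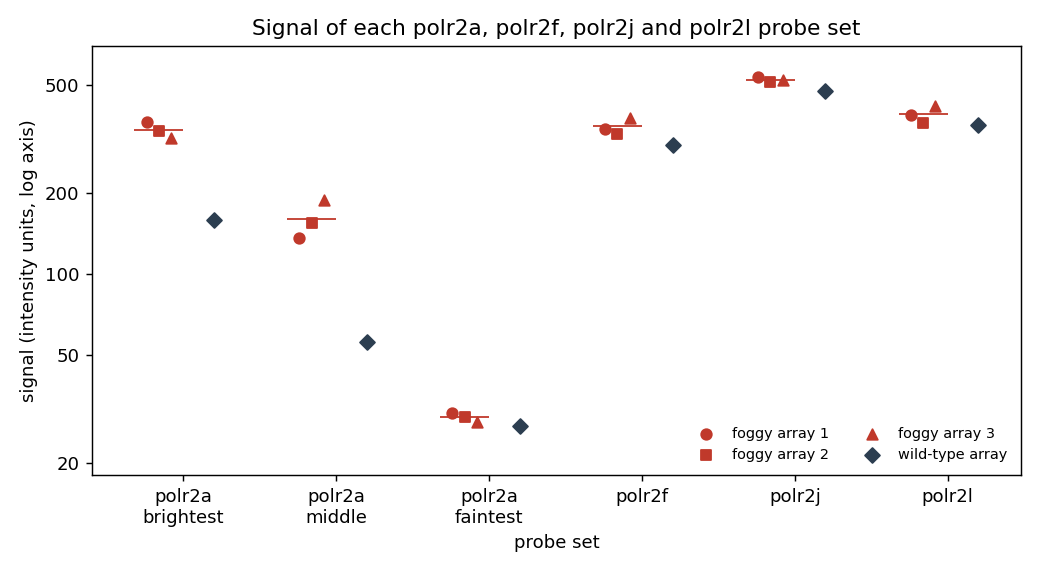
Signal of each of the 6 probe sets in intensity units on a log axis, with the 3 foggy arrays in red (the line is their mean) and the wild-type array in dark blue. The brightest and middle polr2a probe sets read 320 to 366 and 136 to 189 in foggy, above 158 and 56.1 in the wild type, while the other 4 lie close to the wild type.

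Disagreement of this size between probe sets of 1 gene was rare in these data. Of 1055 genes with more than 1 tested probe set, polr2a had the widest gap between its highest and lowest log2 difference, 1.204, where the median gap was 0.15. The next widest was 1.15, that of the uncharacterised gene si:ch211-243g18.2. The same holds among the 157 genes with 3 tested probe sets, whose median gap was 0.23. These are descriptions, since polr2a was chosen for the differences that set its gap. The low end of the polr2a gap is its faintest probe set, at the edge of the range removed as dim. Its brightest and middle probe sets were closer to each other, at +1.03 and +1.27. Whether the weak signal of the faintest made the gap was not tested. Which stretch of the transcript each probe set reads was not analysed here.

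**Figure D2:**
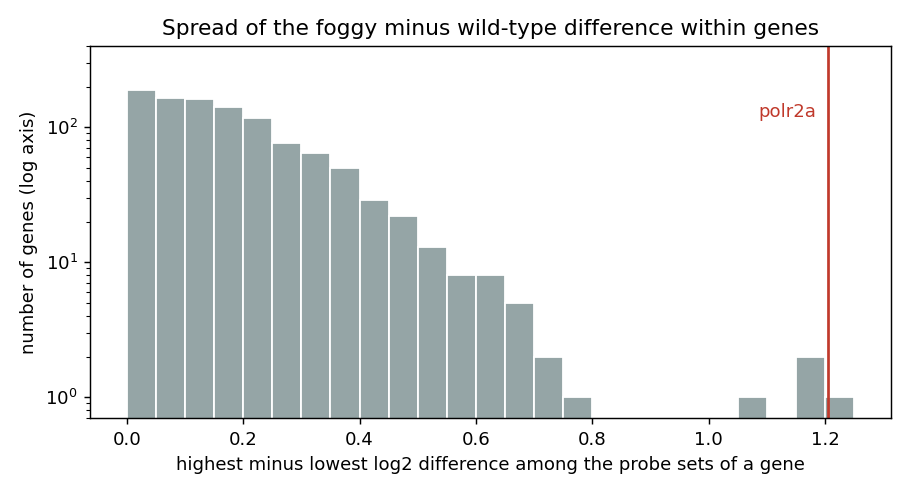
Number of genes (log axis) against the gap between the highest and the lowest foggy minus wild-type log2 difference among a gene's tested probe sets, for 1055 genes. Most gaps lie near the median of 0.15, and polr2a (red line) is at 1.204, its lowest difference being that of its faintest probe set.

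The smaller subunits differed far less from the wild type. The polr2f probe set read 345, 331 and 380 in the foggy arrays and 301 in the wild-type array. Every foggy array was above the wild-type array, with foggy array 3 the highest. Its foggy mean was 352 ± 25.0 (SD, n = 3), 1.17 times the wild-type signal, and its log2 difference was +0.22 with an SD of 0.097. The polr2j probe set read 537, 515 and 522 in the foggy arrays and 477 in the wild-type array. It was the steadiest of the 6 relative to its signal, with a foggy mean of 525 ± 11.1 (SD, n = 3) and a log2 difference of +0.13 with an SD of 0.030. The polr2l probe set read 390, 363 and 419 in the foggy arrays and 357 in the wild-type array. Foggy array 2 was only 1.02 times the wild-type signal and foggy array 3 was 1.17 times it. The foggy mean was 390 ± 28.1 (SD, n = 3), with a log2 difference of +0.12 and an SD of 0.100.

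All 6 probe sets were thus above the wild-type array in each foggy array. Among all tested probe sets, 36.2% were, and since the genes were picked on this contrast the count says nothing further. Several bright control probe sets, which were not tested, also stood above the wild-type array in all 3 foggy arrays, while other controls did not. Some of those control differences were as large as the differences of polr2f, polr2j and polr2l. Of the 10851 tested probe sets, 2.36% rose and 3.14% fell by limma's test at an adjusted p of 0.05. A log2 difference of 1 or more above the wild type was found in all 3 foggy arrays for 2 probe sets (0.0184%), and one as large below it for 62 (0.571%). The middle polr2a probe set was among the 2, and the brightest was not, with +0.94 in foggy array 3. Ordered by their mean difference, the middle and brightest polr2a probe sets ranked 2 and 3 of 10851 from the top, polr2f ranked 1761, polr2j 3114, polr2l 3376 and the faintest polr2a probe set 4448. The median difference of all tested probe sets was +0.02.

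Set against the smaller subunits within the same array, the brightest polr2a probe set took up a larger share of the signal in foggy. Probe sets bind with different strength, so these ratios do not rank transcripts, but each can be followed from array to array. The ratio of polr2a to polr2f signal was 1.06, 1.03 and 0.842 in the foggy arrays and 0.527 in the wild-type array. To polr2j it was 0.681, 0.660 and 0.613 in the foggy arrays and 0.332 in the wild-type array. To polr2l it was 0.938, 0.937 and 0.764 in the foggy arrays and 0.444 in the wild-type array. The foggy arrays stood above the wild-type array in each ratio, and foggy array 3 had the lowest of the foggy ratios in all 3. On the log2 scale the difference of the brightest polr2a probe set exceeded that of polr2f by 0.82 (SD 0.171, n = 3), that of polr2j by 0.90 (SD 0.074) and that of polr2l by 0.91 (SD 0.164). It exceeded that of the faintest polr2a probe set by as much, 0.97 (SD 0.060). The gap to the smaller subunits was thus seen on the brighter polr2a probe sets only. The faintest sat at the edge of the range removed as dim, so it cannot show whether the gap holds for the gene as a whole.

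**Figure D3:**
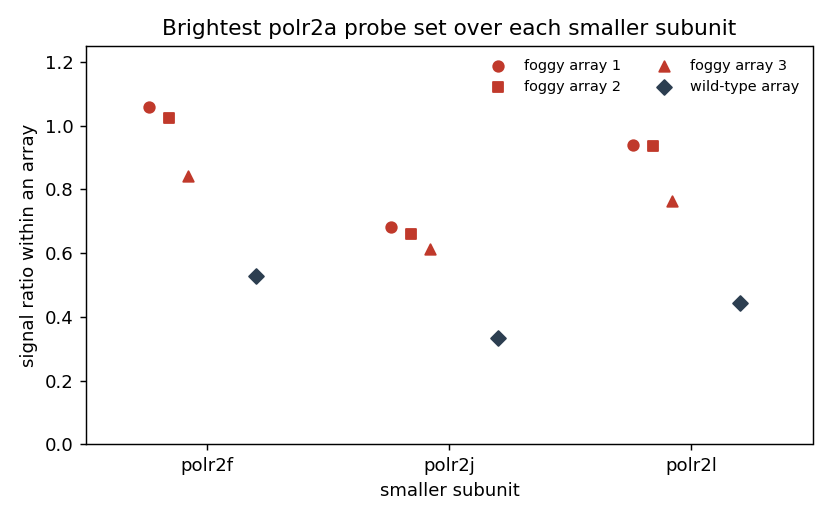
Signal of the brightest polr2a probe set divided by that of polr2f, polr2j or polr2l in the same array, for the 3 foggy arrays (red) and the wild-type array (dark blue). The foggy ratios run between 0.613 and 1.06 and each lies above the wild-type ratio of its pair, which is 0.332 to 0.527.

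None of the other named subunits passed the test. This outcome was largely fixed beforehand, because they are the subunits left after those with larger differences were picked. They were polr2c (Rpb3, the partner of Rpb11), polr2eb (Rpb5, shared by all 3 nuclear polymerases), polr2g (Rpb7, which forms the stalk with Rpb4) and polr2i (Rpb9, a small subunit at the jaw of the enzyme). Of these 4, 0 rose and 0 fell by limma's test at an adjusted p of 0.05, and 0 had an unadjusted p under 0.05. Among all named genes, each taken by its brightest probe set, 2.19% rose and 3.74% fell. At an unadjusted p under 0.05, 11.5% of them were higher and 9.68% lower. The polr2c probe set read 406, 408 and 436 in the foggy arrays and 402 in the wild-type array, a log2 difference of +0.05 (95% interval -0.12 to 0.22, limma adjusted p = 0.787). For polr2i the signals were 293, 291 and 280 in the foggy arrays and 279 in the wild-type array, a difference of +0.04 (95% interval -0.14 to 0.22). All foggy arrays were above the wild-type array for these 2 genes, by little, as they were in 35.5% of all named genes. The polr2eb probe set read 568, 616 and 590 in the foggy arrays and 581 in the wild-type array, a difference of +0.02 (95% interval -0.14 to 0.18). The polr2g probe set read 231, 250 and 259 in the foggy arrays and 249 in the wild-type array, a difference of -0.02 (95% interval -0.22 to 0.19). The wild-type array lay inside the foggy range for both. The upper ends of the 4 intervals were at most 0.22, and their adjusted p-values ran up to 0.948. Subunits polr2b, polr2d, polr2h and polr2k were not analysed here.

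**Figure D4:**
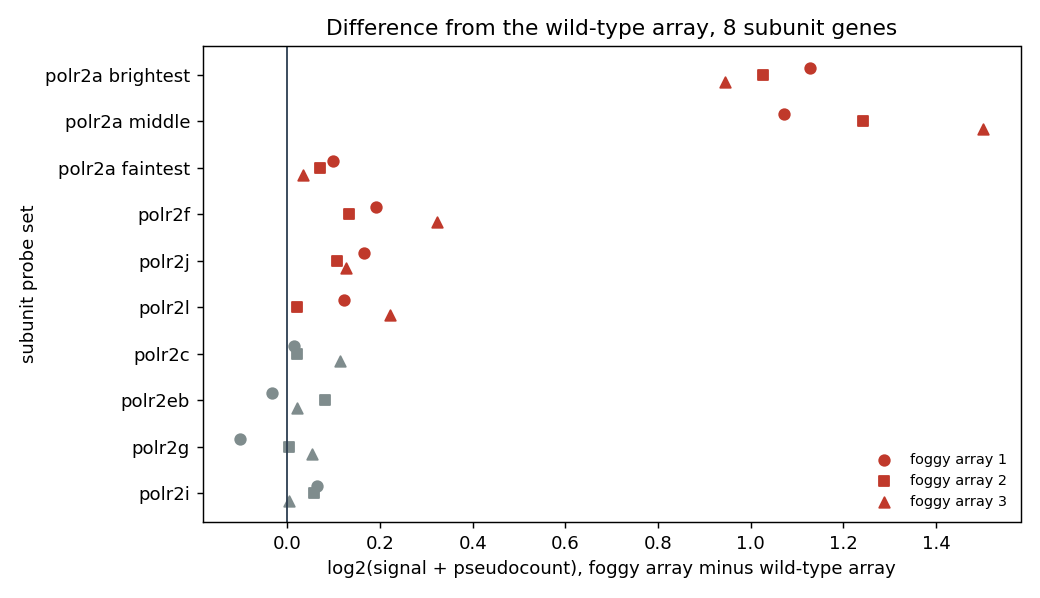
Difference of each foggy array from the wild-type array on the log2(signal + pseudocount) scale, for the 6 probe sets of polr2a, polr2f, polr2j and polr2l (red) and the brightest probe set of the other 4 named subunits (grey). The brightest and middle polr2a probe sets lie between +0.94 and +1.502, and every other point lies below +0.33.

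Polymerases I and III, which also contain Rpb6 and Rpb10, are otherwise built from subunits of their own, some of them common to both. Of 13 tested genes for these subunits 0 rose, 0 fell and 13 did not pass, where 2.19% of all named genes rose and 3.74% fell. At an unadjusted p under 0.05 there were 0, beside 11.5% of all named genes higher and 9.68% lower. With so few genes, 0 calls say little. The median log2 difference was +0.09, beside +0.02 for all named genes. The smallest p-values were those of polr1g and polr1c. The polr1g probe set, for a polymerase I subunit, read 136, 103 and 107 in the foggy arrays and 92.1 in the wild-type array (log2 difference +0.27, adjusted p = 0.353). The polr1c probe set, for a subunit common to both enzymes, read 79.3, 77.1 and 92.7 in the foggy arrays and 68.0 in the wild-type array (log2 difference +0.23, adjusted p = 0.407). On these probe sets all foggy arrays lay above the wild-type array, as they did in 35.5% of all named genes. A dimmer polr1g probe set read 97.4, 73.5 and 70.7 in the foggy arrays and 80.5 in the wild-type array (log2 difference -0.01). The catalytic subunit gene of polymerase I, polr1a, the counterpart of polr2a, was weak, with 35.5, 44.6 and 30.4 in the foggy arrays and 29.6 in the wild-type array (log2 difference +0.20, adjusted p = 0.606).

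The genes that act on or with RNA polymerase II were described by 6 further lists, counting that of polymerases I and III. Over all 7 lists 5 of 125 tested genes rose (4%, beside 2.19% of all named genes) and 0 fell (beside 3.74%). The other 120 did not pass. At an unadjusted p under 0.05, 22 of the 125 were higher and 5 lower, where 11.5% of all named genes were higher and 9.68% lower. Of the 125, 57 were above the wild-type array in all 3 foggy arrays (45.6%, beside 35.5% of all named genes). The lists were written with earlier results of these data known, and the median over the 125 was +0.06.

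The general transcription factors place RNA polymerase II at the promoter. Of 28 tested genes in their list 1 rose (3.57%, beside 2.19% of all named genes), 0 fell (beside 3.74%) and 27 did not pass. The median was +0.05. Of the 28, 6 were higher and 1 lower at an unadjusted p under 0.05, beside 11.5% and 9.68% of all named genes. The list also holds btf3, taf1a, taf5l and taf6l, which are not general transcription factors of RNA polymerase II and did not pass. The gene that rose was gtf2a1, which encodes the large subunit of TFIIA, a factor that steadies TBP on the promoter. It read 518, 438 and 461 in the foggy arrays and 288 in the wild-type array, 1.60-fold higher on the log2(signal + pseudocount) scale (log2 difference +0.68, SE 0.095, adjusted p = 0.00274). All foggy arrays were well above the wild-type array. The call ended where no variance trend was fitted (adjusted p = 0.0740) and where the wild-type array was given an SD 2 times as large as a foggy array (0.226). The TFIID gene taf6 read 44.7, 45.3 and 48.4 in the foggy arrays and 66.4 in the wild-type array (log2 difference -0.41, adjusted p = 0.160). The TFIIE gene gtf2e2 read 396, 445 and 431 in the foggy arrays and 362 in the wild-type array (log2 difference +0.22, adjusted p = 0.174).

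The tail of the polr2a protein is written and read by CTD kinases, phosphatases and binding proteins. Of 25 tested genes 2 rose (8%, beside 2.19% of all named genes), 0 fell (beside 3.74%) and 23 did not pass. The median was +0.04. Of the 25, 5 were higher and 1 lower at an unadjusted p under 0.05, beside 11.5% and 9.68% of all named genes. The gene ccnt2b, for a cyclin of the CTD kinase P-TEFb, read 535, 523 and 485 in the foggy arrays and 394 in the wild-type array, a log2 difference of +0.37 with an SE of 0.078 (adjusted p = 0.0244). The gene ctdspl2a, for a phosphatase-like protein of the CTD small phosphatase family, read 294, 279 and 283 in the foggy arrays and 220 in the wild-type array, a log2 difference of +0.35 with an SE of 0.084 (adjusted p = 0.0401). All foggy arrays lay above the wild-type array for both genes, as they did in 35.5% of all named genes. The kinase partner of ccnt2b, cdk9, read 504, 491 and 504 in the foggy arrays and 438 in the wild-type array (log2 difference +0.18, adjusted p = 0.169). The CTD phosphatase gene ssu72, singled out after its values were seen, had a pair of probe sets. The dimmer read 329, 317 and 318 in the foggy arrays and 214 in the wild-type array (log2 difference +0.55, adjusted p = 0.00392). The brighter, which represents the gene in the counts, read 415, 340 and 363 in the foggy arrays and 298 in the wild-type array and did not pass (log2 difference +0.30, adjusted p = 0.131).

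Pausing and elongation factors are the class to which Spt5 itself belongs. The median of the 33 tested genes, which include the mutated gene supt5h, was +0.14. Among them 30 did not pass, 0 fell (beside 3.74% of all named genes) and 3 rose (9.09%, beside 2.19%). Beside ccnt2b, which both lists hold, these were hexim1, an inhibitor of P-TEFb, and ctr9, a scaffold of the Paf1 complex. The hexim1 probe set read 473, 513 and 521 in the foggy arrays and 333 in the wild-type array (log2 difference +0.57, adjusted p = 0.00284). The ctr9 probe set read 268, 239 and 246 in the foggy arrays and 178 in the wild-type array (log2 difference +0.46, adjusted p = 0.0239). Of the 33, 10 were higher and 2 lower at an unadjusted p under 0.05, beside 11.5% and 9.68% of all named genes. In 19 of the 33 genes (57.6%) all foggy arrays were above the wild-type array, and in 9 all were below, where these shares were 35.5% and 30.1% of all named genes. The list of polymerases I and III had all foggy arrays above in 8 of its 13 genes (61.5%).

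RNA polymerase II is assembled in the cytoplasm with the help of chaperones and carried into the nucleus. Of 16 tested genes for such assembly and import factors 0 rose and 0 fell, beside 2.19% and 3.74% of all named genes. All 16 thus did not pass, and the median was +0.06. At an unadjusted p under 0.05, 1 of the 16 was higher and 0 were lower, beside 11.5% and 9.68% of all named genes. The prefoldin gene pfdn4 had the smallest p, with 774, 756 and 763 in the foggy arrays and 683 in the wild-type array (log2 difference +0.16, adjusted p = 0.197). Next was slc7a6os, the counterpart of the yeast polymerase import factor Iwr1, with 654, 681 and 651 in the foggy arrays and 602 in the wild-type array (log2 difference +0.13, adjusted p = 0.298). Their foggy signals were steady and all above the wild-type array, by small factors, as in 35.5% of all named genes.

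The Rpb1 protein is also removed through ubiquitin ligases. Of 16 tested genes for ligases and turnover factors 0 rose and 0 fell, beside 2.19% and 3.74% of all named genes. All 16 thus did not pass, and the median was -0.09. At an unadjusted p under 0.05, 3 of the 16 were higher and 1 lower, beside the shares of 11.5% and 9.68% of all named genes. The deubiquitinase gene usp7 read 559, 569 and 571 in the foggy arrays and 471 in the wild-type array (log2 difference +0.26, adjusted p = 0.0594). The ligase gene wwp2, whose mouse protein ubiquitinates Rpb1, read 503, 476 and 465 in the foggy arrays and 573 in the wild-type array (log2 difference -0.25, adjusted p = 0.0927). These values are from the brighter of 2 probe sets for each gene. The dimmer ones differed less, by +0.05 for usp7 and -0.08 for wwp2, with the wild-type array inside the foggy range. On the brighter probe sets these 2 genes differed in opposite directions, and in both the foggy arrays lay apart from the wild-type array. Leaving out foggy array 1, which makes the spread smaller, brought both past the threshold (adjusted p = 8.29e-04 for usp7 and 7.91e-04 for wwp2), and usp7 also passed with a stricter filter on dim probe sets at the 50th percentile (0.0494). Other genes named above that did not pass over all arrays likewise passed without foggy array 1. They were gtf2e2, cdk9, pfdn4, the brighter ssu72 probe set and supt5h (adjusted p = 0.00271, 0.0341, 0.0351, 0.0218 and 0.0433). In that setting 1186 probe sets were higher and 878 lower, against 256 and 341 over all arrays. Passing there does not set these genes apart.

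**Figure D5:**
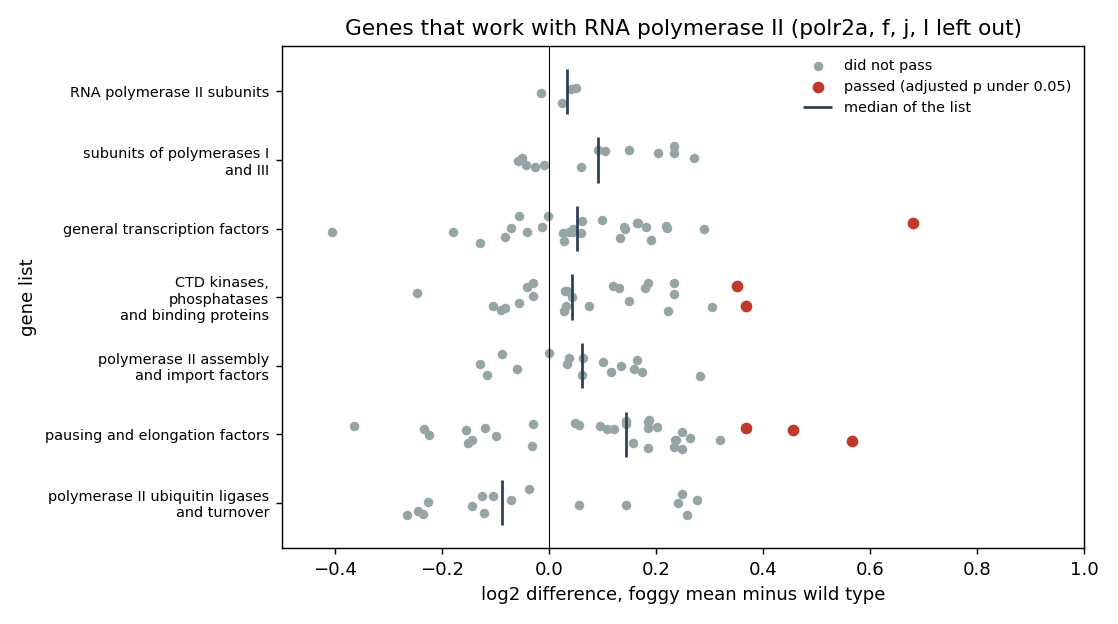
Log2 difference, foggy mean minus wild type, of each tested gene in the 7 lists, by its brightest probe set, with genes that passed limma's test in red and the list median as a bar. The 5 genes that passed lie between +0.35 and +0.68 (ccnt2b is drawn in both lists that hold it), and the list medians lie between -0.09 and +0.14.

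Keeping the dim probe sets ended the calls of ccnt2b, ctr9 and ctdspl2a (adjusted p = 0.0538, 0.0501 and 0.0686). The other 4 genes behaved like gtf2a1 in that neither a fit with no variance trend (adjusted p between 0.0766 and 0.168) nor the wider wild-type SD (between 0.231 and 0.885) left them past the threshold. The call of ctdspl2a also ended without foggy array 2 (adjusted p = 0.0591), without foggy array 3 (0.0645), under quantile normalization (0.0533) and under cyclic loess (0.0655).

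The genes whose differences over the 3 foggy arrays were most like those of the brightest polr2a probe set were taken by root mean square distance on the log2 scale. They were atf3, a transcription factor gene induced by stress (distance 0.163), brd2a, for a bromodomain protein that binds acetylated histones (0.172), chst11, for a chondroitin sulfotransferase (0.212), the uncharacterised si:ch73-335l21.4 (0.223), igfbp1a, for an insulin-like growth factor binding protein (0.253), and hdgfl3, for a hepatoma-derived growth factor relative (0.257). The middle polr2a probe set lay at a distance of 0.346 from the brightest. The 6 genes have the smallest distances of all tested genes with 1 symbol, so their being nearer does not set the middle probe set apart. That brd2a probe set, the brightest of 4, read 441, 460 and 447 in the foggy arrays and 236 in the wild-type array, with a log2 difference of +0.88. The other brd2a probe sets differed by +0.55, +0.22 and -0.18. That at +0.55 was weak, with 57.6, 48.9 and 56.9 in the foggy arrays and 31.9 in the wild-type array, so the pseudocount understates its difference. By the distance used, the likeness of brd2a rests on 1 of its 4 probe sets. The same is so for igfbp1a, whose other probe set differed by +0.35 beside +0.80. The atf3 probe set read 121, 100.3 and 112 in the foggy arrays and 51.9 in the wild-type array, with a log2 difference of +0.90. The chst11 probe set was faint, with 34.7, 30.6 and 44.2 in the foggy arrays and 10.2 in the wild-type array. That of hdgfl3 was faint too, with 42.0, 40.7 and 39.6 in the foggy arrays and 16.9 in the wild-type array. Both wild-type signals lay near or under the pseudocount of 16.252. The likeness rests on 3 differences from 1 wild-type array and was measured after polr2a had been chosen.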

How the data were processed

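Arrays of 15617 probe sets read brain RNA of 3 foggy samples and 1 wild-type sample. The authors deposited intensity values on a linear scale. Which software summarised the probes, and any background correction, is not given in the sources used. With 2% of values trimmed from both ends, every array had a mean of 150.03, so the deposited intensities were used without further scaling. The arrays' number limits the precision.

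A pseudocount of 16.252, the 20th percentile, was added before log2. The 115 control probe sets were left out and 4651 dim ones (mean log2 under the 30th percentile) removed. All 6 probe sets of the 4 genes passed this filter. The 10851 left went into limma 3.58.1 (R 4.3.3; lmFit, then eBayes with a variance trend), two-sided, Benjamini-Hochberg adjusted over all of them, threshold 0.05. The spread was taken from the 3 foggy arrays, with 2 residual and 7.89 prior degrees of freedom, and stands in for that of the single wild-type array. Since nothing says the foggy samples are biological replicates, p-values may reflect technical spread alone. A permutation of 4 arrays cannot give a p below 0.25. The script was tested on simulated data.

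Symbols came from an older platform annotation, updated through gene numbers with RefSeq's table of GRCz12tu (10718 of 10802 matched, 135 probe sets had several symbols and 4680 none). Genes in lists stand by their brightest tested probe set. The members and lists were chosen with earlier results of these data known. Named were all members and other subunits, in each other list the genes past the threshold (at most 6) and, where fewer than 2 passed, the 2 next by p, and the 6 genes nearest to polr2a. Further named genes were cdk9, polr1a and ssu72, chosen after their values were seen.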

Additional observations from a re-analysis of the deposited data

How the results depend on the processing

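Of 12 alternatives 4 (filters, variance trend, wild-type SD) cannot alter the 4 genes' differences, and since all foggy signals lay above the wild type, a pseudocount or leaving out a foggy array cannot turn them. The range over the 12 was +0.87 to +1.102 for the brightest polr2a probe set, +0.89 to +1.48 for the middle one, +0.03 to +0.10 for the faintest, +0.16 to +0.26 for polr2f, +0.11 to +0.15 for polr2j and +0.07 to +0.17 for polr2l. A pseudocount of 64 gave the brightest +0.87, the middle +0.89 and the faintest +0.033, and a pseudocount of 1 gave the faintest +0.10. Every alternative rests on the same wild-type array. The 4 other subunits had 0 calls under each alternative, which says little, because they were left after subunits with larger differences were picked. Against 256 higher and 341 lower probe sets, there were 129 higher without a filter, 27 higher and 137 lower without the variance trend, and 3 higher and 44 lower with the doubled wild-type SD. Of the genes in the 7 lists, 5 higher became 2 without a filter and 0 in each of the other 2 settings. Leaving out each foggy array in turn gave 218 to 1186 higher and 348 to 878 lower probe sets, and 4 to 24 higher and 0 to 4 lower list genes. The top values are those without foggy array 1, where the remaining pair lay closest together (their log2 values differed with an SD of 0.158, beside 0.192 and 0.196 for the other pairs). No paired analysis was possible because the groups share only 1 replicate number.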
